A study of Mus musculus with 10 samples.

Results

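The genes of thyrotropin-releasing hormone (TRH) and of thyroid hormone handling were examined in the hypothalamus of tumour-bearing mice. The tumour was C26, a colon adenocarcinoma line that causes wasting (cachexia) when grown under the skin. The 9 genes, chosen by name, were Trh, Trhde, Slco1c1, Dio2, Dio3, Thra, Thrb, Hr and Crym. A gene was measured where the platform annotation paired a probe set with that gene alone, and this held for 8 of the 9, each with 1 probe set. Thra was paired only with probe sets that also carried Nr1d1, so it was not analysed here. Of the 8 measured genes, 7 lay above the filter level on all 8 individual arrays and were among the 12978 genes tested. Dio3 lay below that level on every individual array and was not tested.

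TRH is a small peptide released by neurons of the paraventricular nucleus, and it drives the pituitary to secrete thyrotropin and through it the thyroid. Thyroid hormone enters the brain through transporters of the capillary wall, is activated or inactivated by deiodinases in glial cells and neurons, acts on nuclear receptors, and in turn represses Trh. In rodents, fasting and inflammation are known to lower Trh in the paraventricular nucleus and to raise Dio2 in tanycytes, the glia that line the third ventricle.

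All animals were male CDF1 mice (BALB/c x DBA/2), 10 to 11 weeks old. The tumour-bearing group of 5 mice had been injected under the skin with 1000000 C26 cells in 0.2 ml of salt solution, and the 3 control mice with 0.2 ml of the solution alone. Tissue was taken on day 20, and 1 whole-transcript array was run per mouse. A further array held RNA pooled from 5 tumour-bearing mice and another RNA pooled from 4 control mice. The control pool thus held RNA of more mice than the 3 controls arrayed singly. Whether the pooled RNA came from the individually arrayed mice is otherwise not stated in the labels, so the pools were set beside the individual arrays and entered no test. Levels are log2 values of RMA, the normalization used by the submitters, and a log2 difference of 1 is a doubling of signal. Levels of different genes are not compared, since each probe set has its own brightness.

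Hypothalamic genes were present on every array, with a mean log2 level of 6 hypothalamus markers between 7.41 and 7.79 in tumour-bearing mice and between 7.46 and 7.53 in controls. Some arrays stood apart. Gh, pituitary growth hormone, was at 10.45 and 10.48 in tumour-bearing mice 3 and 4 and at 9.82 in the tumour-bearing pool, against 4.76 to 5.51 in the other 3 tumour-bearing mice and 4.21 to 4.45 in controls. Ppp1r1b, a marker of striatal neurons, was at 7.47 in tumour-bearing mouse 1 and 7.32 in the tumour-bearing pool, against 5.62 to 5.86 in the other 4 tumour-bearing mice and 5.53 to 5.70 in controls. Slc6a4, the serotonin transporter gene, was at 3.56 to 4.34 in tumour-bearing mice, against 3.78 in control 1 and 6.45 and 5.93 in controls 2 and 3, and Tph2, the gene of an enzyme of serotonin synthesis, likewise set controls 2 and 3 (5.99 and 5.13) apart from control 1 (3.19). Slc6a3, the dopamine transporter gene, was at 6.19 in tumour-bearing mouse 3 and 8.30 to 9.67 in the other 4, against 9.71 to 9.91 in controls. Pomc, a hypothalamus marker, set both pools apart, at 6.59 in the tumour-bearing and 6.67 in the control pool. In individual mice it was at 5.55 to 5.79 in tumour-bearing mice and 5.71 to 5.91 in controls. The correlation between individual arrays over all tested probe sets was 0.980 to 0.989.

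None of the 7 tested genes passed the threshold, a limma adjusted p under 0.05 over all tested probe sets, which 0.0771% of the 12978 tested genes passed. Trh and Hr were higher in all 5 tumour-bearing mice than in any control, as were 3.11% of all tested genes, and Slco1c1 was lower in all 5, as were 5.19%. These were also the 3 genes with an unadjusted limma p under 0.05, which 10.3% of tested genes had, 3.78% higher and 6.51% lower. Trhde, Dio2, Thrb and Crym overlapped between the groups. The median difference of the 7 genes was 0.15, against -0.01 over all tested genes. With 5 against 3 arrays, the smallest p that an exact permutation test can give is 0.0179, and such p-values are given below for single genes without adjustment for the 7 genes tested. Nothing in the labels beyond the mouse numbers describes litters, cages or array batches.

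**Figure D1:**
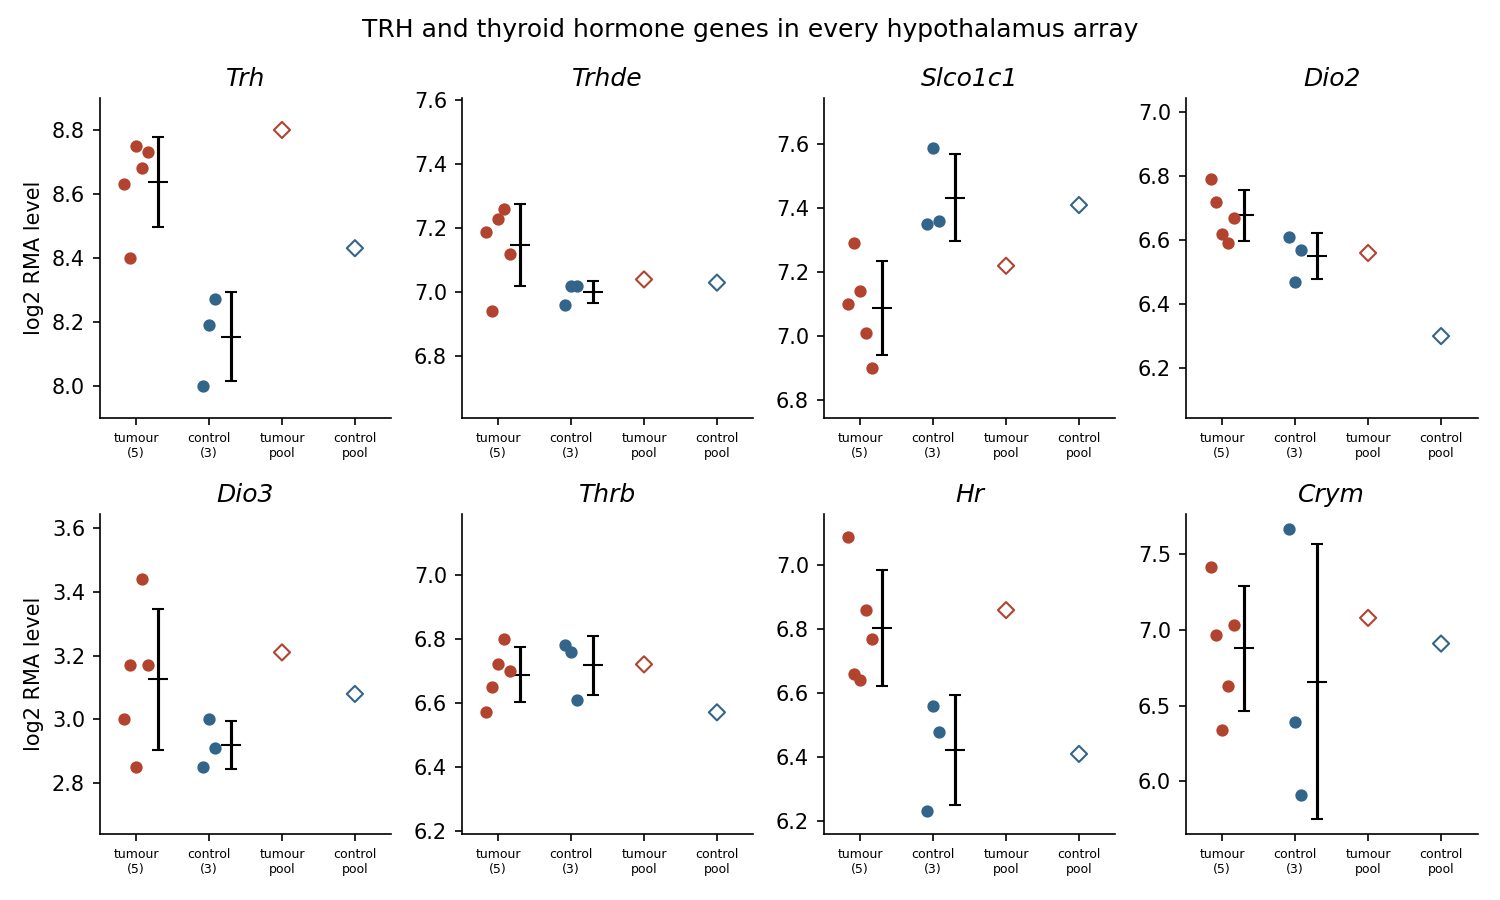
Log2 RMA level (vertical axis, a separate scale per panel spanning at least 1 log2 unit) of the 8 measured genes. Filled points are individual tumour-bearing (red) and control (blue) mice in order of mouse number, with the group mean and SD beside them, and open diamonds are the pools. Trh and Hr are higher and Slco1c1 is lower in every tumour-bearing mouse than in any control, while Crym spreads widely in both groups.

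Trh, the gene of the TRH precursor, was at 8.63, 8.40, 8.75, 8.68 and 8.73 in tumour-bearing mice 1 to 5, against 8.00, 8.19 and 8.27 in control mice 1 to 3. The groups did not overlap: tumour-bearing mouse 2 was the lowest of its group and lay 0.14 above the highest control. The mean was 8.64 ± 0.14 in tumour-bearing mice (SD, n = 5) and 8.15 ± 0.14 in controls (SD, n = 3), a 1.40-fold difference on the deposited scale. The log2 difference was 0.49 ± 0.09 (SE; 95% interval 0.29 to 0.68), with a limma adjusted p of 0.135 and a two-sided exact permutation p of 0.0179. By unadjusted p it ranked 33 among the tested genes, and 0.979% of them had a larger absolute difference. The call depended on the setting. Without tumour-bearing mouse 2 the difference was 0.55 and passed (limma adjusted p = 0.0282), and it passed with the same difference, 0.49, when testing was limited to the probe sets of 1 gene (limma adjusted p = 0.0245). Over the 20 alternatives the difference was 0.41 to 0.55 and the limma adjusted p 0.0245 to 0.631. Without tumour-bearing mice 3 and 4, the mice with high Gh, it was 0.44 (limma adjusted p = 0.395).

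In the pools Trh was at 8.80 in tumour-bearing and 8.43 in control RNA, a difference of 0.37. The control pool lay above all 3 individual controls and above tumour-bearing mouse 2. The pools thus differed in the same direction as the individual arrays, while the level of each pool exceeded the mean of its own group, by 0.16 for tumour-bearing and 0.28 for control RNA.

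Markers of the paraventricular nucleus had a higher mean in every tumour-bearing mouse than in any control, but no member passed the test. The mean log2 level of 6 such markers was 6.89 to 7.21 in tumour-bearing mice and 6.63 to 6.85 in controls, 5 of the 6 were tested, and 0 passed the threshold, while 3 were higher at an unadjusted limma p under 0.05, as were 3.78% of all tested genes. Avp, vasopressin, differed by 0.50 ± 0.07 SE (limma adjusted p = 0.0597), and the levels of its groups did not overlap, at 9.29 to 9.65 in tumour-bearing mice and 8.92 to 9.06 in controls. Oxt, oxytocin, differed by 0.66 ± 0.18 SE (limma adjusted p = 0.277). Sim1, a transcription factor that paraventricular neurons require, differed by 0.30 ± 0.11 SE (limma adjusted p = 0.384), and its groups overlapped, as did those of the transcription factor genes Otp (0.21 ± 0.14 SE) and Pou3f2 (0.01 ± 0.09 SE). Crh, the gene of corticotropin-releasing hormone, was below the filter level on all 8 arrays but is included in the mean of the 6 markers. Tumour-bearing mouse 2 had the lowest mean of this list in its group, 6.89, as it had for Trh. Whether these markers and Trh share a source of difference was not tested, and in whole tissue more cells of a type and more RNA per cell cannot be told apart. Nor do the arrays tell which nucleus of the hypothalamus the signal of Trh or of these markers came from.

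The promoter of Trh is shown because the gene is the subject of this comparison and because its cyclic AMP and thyroid hormone control is well studied. RefSeq promoter sequences (GRCm38.p6) were found for 6 of the 9 genes, and the 250 bases before the start were searched on both strands for AGGTCA (the half-site bound by thyroid hormone receptors and other nuclear receptors), TGACGTCA (the cyclic AMP response element), its variant TGACCTCA (whose first 6 bases are AGGTCA on the other strand), TTCNNNGAA (a STAT site) and AGAACA (a half-site of the glucocorticoid receptor). Capitals mark every match. The Trh window, chr6:92244651-92244900 on the minus strand, held TGACCTCA at 57 to 50 bases before the start, with AGGTCA inside it on the other strand, and AGAACA at 211 to 206 bases on the other strand.
Trh: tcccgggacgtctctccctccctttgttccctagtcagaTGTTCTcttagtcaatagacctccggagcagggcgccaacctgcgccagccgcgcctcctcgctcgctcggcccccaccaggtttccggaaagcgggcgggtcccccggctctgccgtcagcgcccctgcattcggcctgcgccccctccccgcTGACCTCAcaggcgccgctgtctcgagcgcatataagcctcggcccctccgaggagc
Among 32851 mouse promoter windows, 14.0% held AGGTCA, 1.94% TGACCTCA and 16.1% AGAACA. These matches are a description of letters, and no binding was measured.

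Trhde, the TRH-degrading ectoenzyme that ends the peptide's action outside the cell, was at 7.19, 6.94, 7.23, 7.26 and 7.12 in tumour-bearing mice 1 to 5, against 6.96, 7.02 and 7.02 in control mice 1 to 3. The groups overlapped, since tumour-bearing mouse 2 lay below all controls and the other 4 above them. The mean was 7.15 ± 0.13 in tumour-bearing mice (SD, n = 5) and 7.0 ± 0.03 in controls (SD, n = 3). The difference of 0.15 ± 0.08 SE had a 95% interval of -0.02 to 0.32 (limma adjusted p = 0.533, exact permutation p = 0.125). Without tumour-bearing mice 3 and 4 it was 0.085. The pools were at 7.04 in tumour-bearing and 7.03 in control RNA.

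Slco1c1 encodes the thyroxine transporter OATP1C1 of brain capillary endothelium and astrocytes. Its level was 7.10, 7.29, 7.14, 7.01 and 6.90 in tumour-bearing mice 1 to 5, against 7.35, 7.59 and 7.36 in control mice 1 to 3. Every tumour-bearing mouse was below every control, with mouse 2 only 0.07 under the lowest control. The mean was 7.09 ± 0.15 in tumour-bearing mice (SD, n = 5) and 7.43 ± 0.13 in controls (SD, n = 3), a ratio of 0.786. The log2 difference was -0.35 ± 0.09 (SE; 95% interval -0.56 to -0.14), with a limma adjusted p of 0.277 and a two-sided exact permutation p of 0.0179. It ranged from -0.40 to -0.26 over the 20 alternatives and passed the threshold in 0 of them. In the pools the level was 7.22 in tumour-bearing and 7.41 in control RNA.

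Endothelial markers went both ways, with 4 differences above 0 and 3 below. The mean log2 level of 7 such markers was 7.92 to 8.14 in tumour-bearing mice and 7.80 to 8.08 in controls, and 1 of the 7, Mfsd2a, a lipid transporter gene of the blood-brain barrier, rose (0.55 ± 0.07 SE, limma adjusted p = 0.0361). Tek, an endothelial receptor gene, lay in the direction of Slco1c1, at -0.26 ± 0.11 SE (limma adjusted p = 0.451), and was at 5.86 in the tumour-bearing and 6.16 in the control pool. Of the 6 astrocyte markers, at a mean of 9.18 to 9.37 in tumour-bearing mice and 9.33 to 9.43 in controls, 0 passed the threshold. One of these, the water channel gene Aqp4, differed by -0.51 ± 0.11 SE, with levels of 8.43 to 9.01 in tumour-bearing mice and 9.10 to 9.23 in controls. Another, the glutamate transporter gene Slc1a3, lay the other way, at 0.13 ± 0.04 SE (limma adjusted p = 0.321). The oligodendrocyte list, which was lower in every tumour-bearing mouse, is given with the marker lists. The part of these cell types in the Slco1c1 difference was not tested. The Slco1c1 window before the start (chr6:141524104-141524353, plus strand) held no match to the 5 motifs, and is shown beside that of Trh as the gene that lay in the opposite direction.
Slco1c1: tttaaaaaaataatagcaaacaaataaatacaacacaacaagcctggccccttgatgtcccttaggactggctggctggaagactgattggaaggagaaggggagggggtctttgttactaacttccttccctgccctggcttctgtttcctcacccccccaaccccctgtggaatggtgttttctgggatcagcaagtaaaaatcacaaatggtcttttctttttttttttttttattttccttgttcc

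**Figure D2:**
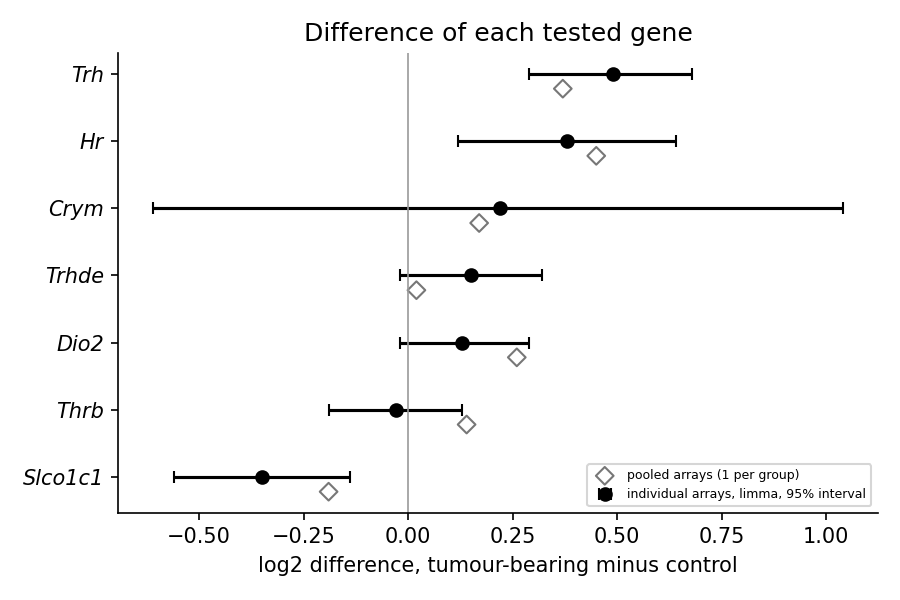
Log2 difference of tumour-bearing minus control mice (horizontal axis) for the 7 tested genes. Black points with bars are limma estimates from the individual arrays with their 95% intervals, and diamonds are the differences between the 2 pools. The intervals of Trh, Hr and Slco1c1 lie on 1 side of 0 before adjustment for all tested probe sets, and the Thrb diamond lies across 0 from its point.

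The deiodinase genes act in opposite ways on the hormone. Dio2, which converts thyroxine to the active triiodothyronine and is made in tanycytes and astrocytes, was at 6.79, 6.72, 6.62, 6.59 and 6.67 in tumour-bearing mice 1 to 5, against 6.61, 6.47 and 6.57 in control mice 1 to 3. All tumour-bearing mice lay above the control mean of 6.55, and 4 of 5 lay above every control. The difference was 0.13 ± 0.07 SE, with a 95% interval of -0.02 to 0.29 (limma adjusted p = 0.533, exact permutation p = 0.0536). The pools were at 6.56 in tumour-bearing and 6.30 in control RNA, a difference of 0.26, and both pools lay below every individual array of their group. Tanycyte markers went both ways, with 2 differences above 0 and 5 below. The mean of 7 was 6.20 to 6.40 in tumour-bearing mice and 6.39 to 6.43 in controls, with 0 past the threshold. The largest difference among them was in Nes, nestin, at -0.57 ± 0.21 SE (limma adjusted p = 0.407). Lhx2, a transcription factor gene of tanycytes, differed by 0.17 ± 0.10 SE (limma adjusted p = 0.606). The part of these cells in the Dio2 values was not tested.

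Dio3, which inactivates both hormones, was at 3.00, 3.17, 2.85, 3.44 and 3.17 in tumour-bearing mice 1 to 5, against 2.85, 3.00 and 2.91 in control mice 1 to 3. These levels are under the filter level of 4.32 on every array and overlap between the groups. The groups differed by 0.21 (exact permutation p = 0.214), and a difference could not be resolved at this signal.

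The Dio2 promoter is shown because control of this gene by cyclic AMP is well known. The window, chr12:90739039-90739288 on the minus strand, held TGACGTCA at 95 to 88 bases before the start.
Dio2: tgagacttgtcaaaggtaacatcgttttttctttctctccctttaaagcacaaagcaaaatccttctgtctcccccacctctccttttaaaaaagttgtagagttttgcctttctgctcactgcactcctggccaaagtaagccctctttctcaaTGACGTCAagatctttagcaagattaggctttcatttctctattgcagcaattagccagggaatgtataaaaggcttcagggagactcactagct
The same letters were found in 1.55% of mouse promoter windows. The single Dio3 and Trhde windows held no match to the 5 motifs, and the pair of Thrb windows held AGGTCA or AGAACA.

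Thrb, the gene of thyroid hormone receptor beta, through which the hormone represses Trh, differed least. It was at 6.57, 6.65, 6.72, 6.80 and 6.70 in tumour-bearing mice 1 to 5, against 6.78, 6.76 and 6.61 in control mice 1 to 3, and the groups overlapped. The difference was -0.03 ± 0.07 SE with a 95% interval of -0.19 to 0.13 (limma adjusted p = 0.917, exact permutation p = 0.607), and the interval leaves out differences beyond those bounds. In the pools the order was the other way, 6.72 in tumour-bearing and 6.57 in control RNA. With the pools as samples the difference was 0.009.

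Hr encodes hairless, a nuclear corepressor of thyroid hormone receptors that is itself induced by the hormone in rodent brain. It was at 7.09, 6.66, 6.64, 6.86 and 6.77 in tumour-bearing mice 1 to 5, against 6.23, 6.56 and 6.48 in control mice 1 to 3. The lowest tumour-bearing mouse, mouse 3, lay 0.08 above the highest control, and mouse 1 was the highest. The mean was 6.80 ± 0.18 in tumour-bearing mice (SD, n = 5) and 6.43 ± 0.17 in controls (SD, n = 3), a 1.30-fold difference. The log2 difference was 0.38 ± 0.12 (SE; 95% interval 0.12 to 0.64), with a limma adjusted p of 0.319 and a two-sided exact permutation p of 0.0357. It was 0.31 without tumour-bearing mouse 1, the mouse with high Ppp1r1b. Without control 1, the array with the lowest Hr, it was 0.28. Over the 20 alternatives it was 0.28 to 0.45, with 0 of them past the threshold. In the pools Hr was at 6.86 in tumour-bearing and 6.41 in control RNA, a difference of 0.45.

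Crym encodes mu-crystallin, which binds triiodothyronine in the cytosol. Its level spread more than that of the other measured genes: it was 7.42, 6.97, 6.34, 6.63 and 7.03 in tumour-bearing mice 1 to 5, against 7.67, 6.39 and 5.91 in control mice 1 to 3. The within-group SD of 0.62 was larger than that of 99.9% of tested genes. The highest and the lowest arrays were both controls, so that the groups overlapped completely, and the difference of 0.22 ± 0.37 SE had a 95% interval of -0.61 to 1.04 (limma adjusted p = 0.885, exact permutation p = 0.643). The difference rested on single mice. It was 0.72 without control 1 and -0.16 without control 3. Leaving out control 2 gave 0.084. For tumour-bearing mice, leaving out mouse 1 gave 0.081 and mouse 3 gave 0.35. The pools were at 7.08 in tumour-bearing and 6.91 in control RNA. The mean of 3 striatum markers, which set tumour-bearing mouse 1 apart at 6.84, was 6.04, 6.14 and 6.01 in control mice 1 to 3, and the mean of 4 cortex markers was 4.82, 4.51 and 4.89. The midbrain list did set control 1 apart, at a mean of 6.55 against 7.66 and 7.41 in control mice 2 and 3, where control 1 was the low one. Cga, the pituitary glycoprotein hormone alpha subunit gene, had the same order of controls as Crym, at 7.71, 6.29 and 6.10 in control mice 1 to 3. In tumour-bearing mice 1 to 5 Cga was at 6.66, 7.16, 7.88, 7.80 and 6.93, the reverse of their order for Crym. The part of neighbouring tissue in the spread of Crym was not tested.

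**Figure D3:**
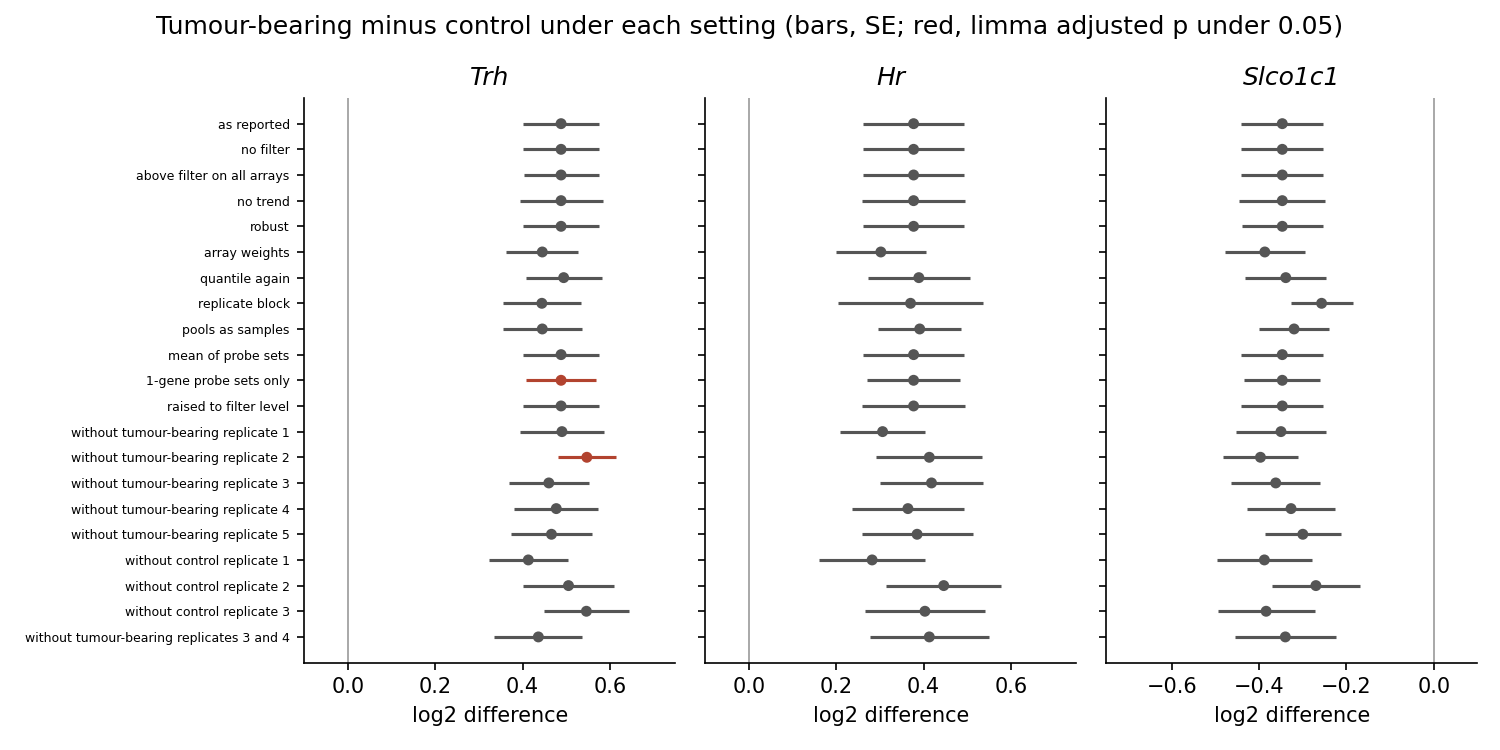
Log2 difference of tumour-bearing minus control mice (horizontal axis, bars SE) for Trh, Hr and Slco1c1 as reported and under each of 20 alternatives (rows). Red marks a limma adjusted p under 0.05. Trh is red in 2 rows, without tumour-bearing mouse 2 and with 1-gene probe sets only, and no row crosses 0.

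The order of mice differed between genes. Among tumour-bearing mice, mouse 2 had the lowest Trh and Trhde and the highest Slco1c1, which for these genes placed it nearest to the controls or, for Trhde, below them. Dio2, Hr and Crym were highest in mouse 1, and Dio3 and Thrb in mouse 4. Mouse 2 was also the tumour-bearing mouse with the highest mean of the midbrain and of the oligodendrocyte markers, at 6.75 and 8.81. Between the pools, 7 of the 8 measured genes differed in the same direction as between the individual arrays, the exception being Thrb. These 7 include Trhde, at a pool difference of 0.02, and Dio3, which lay below the filter level. The share over all tested genes is not given here, and the pools may hold RNA of the same mice, so this count is a description.

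The genes whose levels ran closest to Trh over the 8 individual arrays, by the root mean square difference of log2 values centred per gene, were Rab3b, Dlx1, Ngb, Mfsd2a and Avp, out of 12977 others. Rab3b, a vesicle-associated GTPase gene, differed from the Trh profile by 0.078. It was at 8.09 to 8.34 in tumour-bearing mice and 7.75 to 7.94 in controls. Dlx1, a homeobox gene of GABA neurons, was at 7.61 to 8.01 in tumour-bearing mice and 7.17 to 7.40 in controls. Ngb, the neuronal oxygen-binding protein neuroglobin, was at 7.54 to 7.86 in tumour-bearing mice and 7.30 to 7.45 in controls. Of these 5, Mfsd2a was the one past the threshold (limma adjusted p = 0.0361), with 0.0597 for Avp, 0.143 for Rab3b, 0.187 for Dlx1 and 0.219 for Ngb. All 5 were higher in every tumour-bearing mouse than in any control, which follows in part from the choice by likeness to Trh.

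No other tested gene of the pathway passed the threshold, and the sizes of their differences varied, up to 0.78. Of 38 listed genes in 5 groups, 33 were tested, 0 passed the threshold in either direction, and 16 differences were above 0 and 17 below, with a median of -0.01. At an unadjusted limma p under 0.05, 1 of the 33 was higher and 2 were lower, against 3.78% higher and 6.51% lower over all tested genes. Among the 6 tested genes of TRH processing and breakdown, differences were at most 0.11 in size. Cpe, which trims basic residues from prohormones, was at 10.84 ± 0.05 in tumour-bearing mice (SD, n = 5) and 10.78 ± 0.03 in controls (SD, n = 3). Qpct, which closes the amino-terminal ring of TRH, was at 7.34 ± 0.09 in tumour-bearing mice (SD, n = 5) and 7.24 ± 0.09 in controls (SD, n = 3). Pcsk1, a prohormone convertase, was at 8.71 ± 0.06 in tumour-bearing mice (SD, n = 5) and 8.82 ± 0.20 in controls (SD, n = 3). None of these 6 genes had groups that did not overlap.

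The 7 tested genes of hormone transport and binding included Slco1a4, the capillary transporter related to Slco1c1, which differed by 0.13 ± 0.07 SE (limma adjusted p = 0.542), opposite in sign to Slco1c1; a difference between these genes was not tested. Ttr, the thyroxine-binding protein transthyretin, made mostly in choroid plexus, spread from 5.46 to 7.11 in tumour-bearing mice and from 5.28 to 6.46 in controls, and differed by 0.34 ± 0.41 SE. Slc3a2, the heavy chain of amino acid transporters that also carry the hormone, differed by 0.05 ± 0.05 SE. Of 10 tested partners of the receptors, such as the coactivator genes Ncoa1 (0.08) and Med1 (-0.06) and the corepressor subunit gene Tbl1xr1 (-0.07), 0 differed by more than 0.09 in size. The receptor genes Trhr (0.12), Trhr2 (-0.19) and Tshr (-0.05) overlapped between the groups.

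Among 7 tested genes listed as responding to thyroid hormone, the directions were mixed, with 3 above 0 and 4 below and 0 past the threshold. Nrgn, neurogranin, a calmodulin-binding protein of dendrites, was at 8.42, 8.28, 8.40, 8.33 and 8.48 in tumour-bearing mice 1 to 5, against 8.25, 8.17 and 8.15 in control mice 1 to 3 (difference 0.19 ± 0.05 SE, limma adjusted p = 0.294). These groups did not overlap, although in the pools Nrgn was at 8.31 in tumour-bearing and 8.43 in control RNA. Aldh1a1, a retinoic acid-synthesising enzyme also made by midbrain dopamine neurons, was at 8.35, 8.90, 7.77, 8.24 and 8.46 in tumour-bearing mice 1 to 5, against 9.0, 9.13 and 9.24 in control mice 1 to 3 (difference -0.78 ± 0.20 SE, limma adjusted p = 0.270). Its lowest and highest tumour-bearing mice, 3 and 2, were also those of the midbrain list. Hopx, a small homeodomain protein gene, was at 5.40 to 5.70 in tumour-bearing mice and 5.76 to 5.85 in controls (difference -0.26 ± 0.09 SE, limma adjusted p = 0.395). Klf9, a transcription factor gene induced by both thyroid hormone and glucocorticoids, overlapped between the groups, at 8.30 to 8.73 in tumour-bearing mice and 8.38 to 8.56 in controls.

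**Figure D4:**
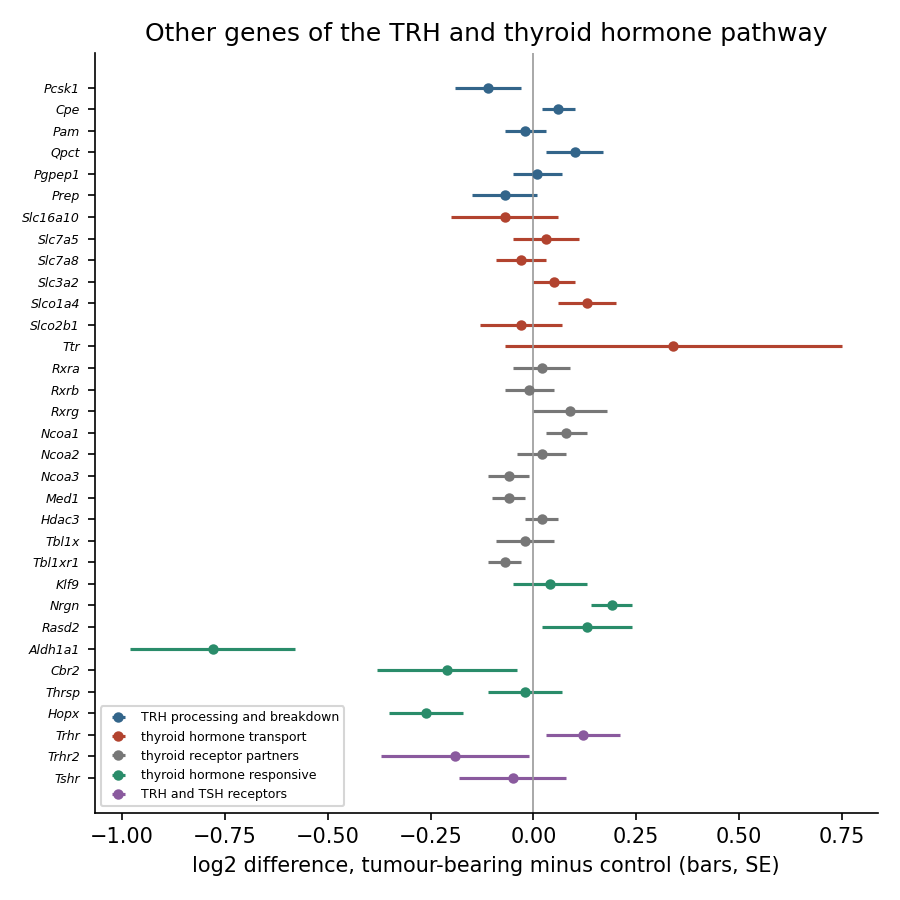
Log2 difference of tumour-bearing minus control mice (horizontal axis, bars SE, n = 5 and 3) for the 33 tested pathway genes (rows), coloured by group. Most points lie close to 0, Aldh1a1 lies at -0.78, and the bar of Ttr is wide.

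Marker lists of other cells and neighbouring tissue also differed between arrays, and of the 3 described here the oligodendrocyte list was the one whose means did not overlap between the groups. The midbrain mean includes Tph2 and Slc6a4, which were low in control 1 (3.19 and 3.78). Its members Slc6a3 (-1.58 ± 0.60 SE), Th (-0.93 ± 0.20 SE) and Slc18a2 (-0.72 ± 0.16 SE) were each lower in every tumour-bearing mouse than in any control. The mean log2 level of 6 midbrain markers was 5.60 to 6.75 in tumour-bearing mice and 6.55 to 7.66 in controls, with 5 of 5 tested members below 0 and 0 past the threshold. Of these 5, 4 were lower at an unadjusted limma p under 0.05, and 3 did not overlap between the groups. The mean of 5 oligodendrocyte markers was 8.01 to 8.81 in tumour-bearing mice and 8.88 to 8.97 in controls, again with 5 of 5 below 0 and 0 past the threshold. Again 4 were lower at an unadjusted limma p under 0.05, and 3 did not overlap. Over all tested genes, 6.51% were lower at that p and 5.19% were lower in all 5 tumour-bearing mice than in any control. Differences above 0 made up 45.5% of all tested genes. The mean of 6 pituitary markers was 6.45 and 6.40 in tumour-bearing mice 3 and 4, 4.31 to 4.51 in the other 3 tumour-bearing mice and 3.96 to 4.35 in controls. Tshb, the thyrotropin subunit gene of the pituitary cells that TRH stimulates, was below the filter level on all 8 arrays. The part of these tissues in the differences of Trh, Hr and Slco1c1 was not tested. Without mice 3 and 4, Trh differed by 0.44, Hr by 0.41 and Slco1c1 by -0.34.

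**Figure D5:**
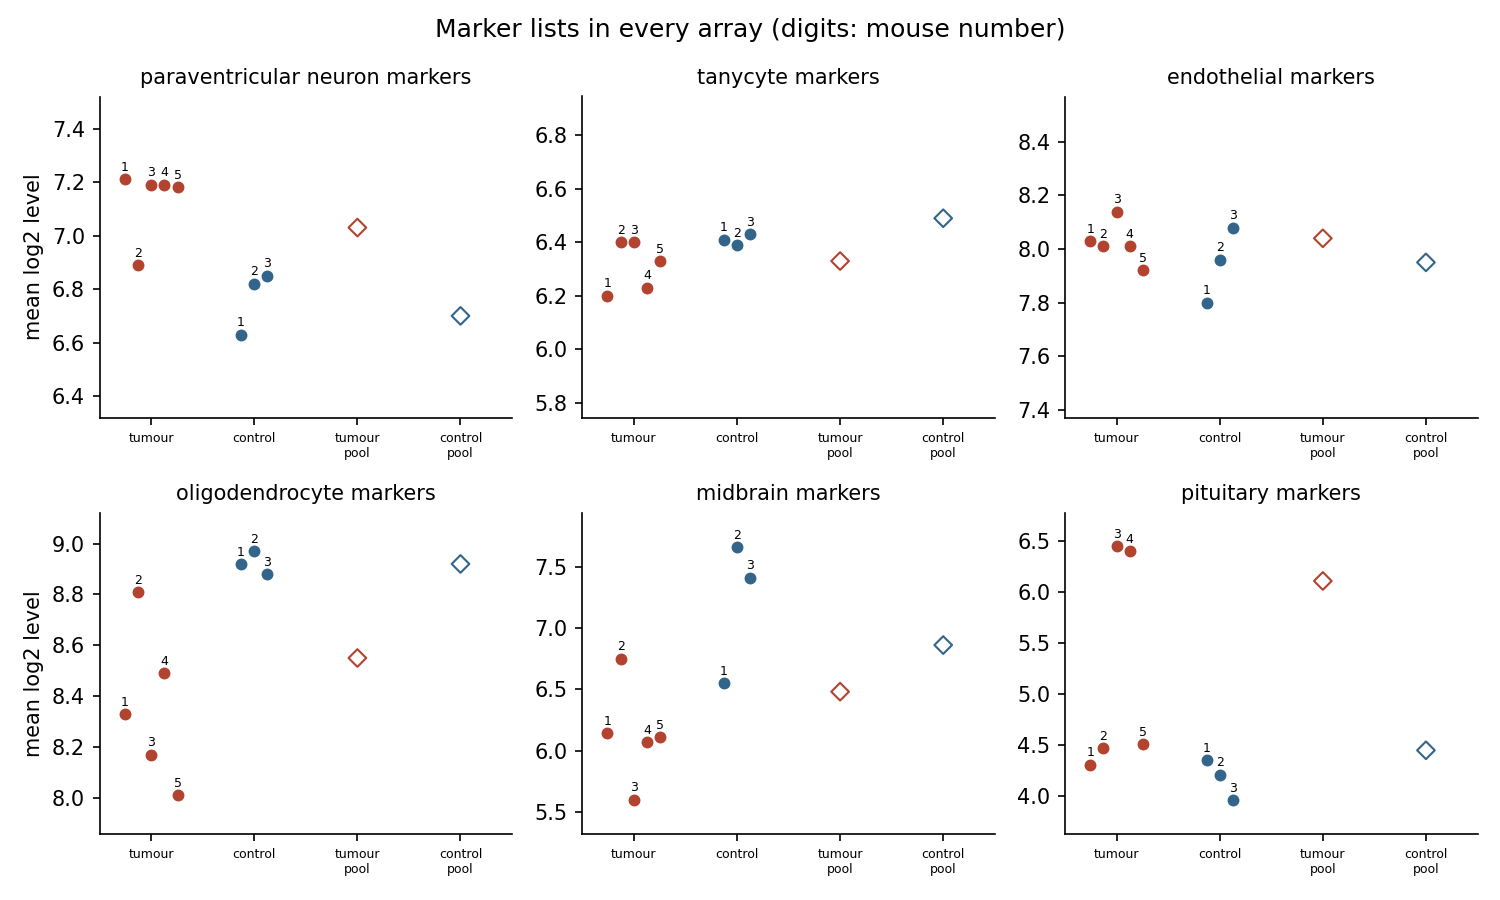
Mean log2 level (vertical axis, a separate scale per panel spanning at least 1 log2 unit) of 6 marker lists in every array, with tumour-bearing mice in red, controls in blue, mouse numbers beside the points and pools as diamonds. Paraventricular markers are higher and oligodendrocyte markers lower in every tumour-bearing mouse than in any control, and pituitary markers are high in tumour-bearing mice 3 and 4 and in the tumour-bearing pool.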

How the data were processed

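Hypothalamus RNA of 5 tumour-bearing and 3 control mice was measured on single whole-transcript arrays, with 1 pooled array per group. Per the submitters' processing notes, the authors' deposited log2 levels come from RMA. The RMA version, the probe set definition and whether all 10 arrays were processed together are not given in the sources used here, and the log2 scale was taken from RMA's usual output and the values' range, 0.95 to 13.59. RMA gives the arrays a common distribution and compresses folds. Array medians were 5.30 to 5.32 in individual arrays, 5.28 in the tumour-bearing pool and 5.27 in the control pool.

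Of 35556 probe sets, 21218 were paired with 1 gene by the platform annotation, 1881 with several, and 12457 are unnamed here. Where a gene had several, the one with the highest mean was used. The tested set was 22837 probe sets that exceeded a log2 level of 4.32 (20 before taking logs) in 3 or more of the 8 individual mice. It was fitted with limma 3.58.1 in R 4.3.3 (lmFit, eBayes with an intensity trend), with Benjamini-Hochberg adjustment over all of them and a threshold of 0.05. The test was tested on simulated data. For single genes the absolute difference of means was also set against all 56 splits of the arrays (exact permutation, two-sided). The number of arrays limits the precision.

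The genes, the 16 gene lists, the motifs and the alternatives were chosen with earlier results of these data known, so counts over them are descriptions. From a list the text names each gene past the threshold, or otherwise up to 3 with the smallest p. Crh, Tshb, Prl, Klf9, Cbr2, Otp, Pou3f2, Tek, Slc6a4 and Tph2 were chosen after their values were seen. The 5 genes nearest to Trh are named. The alternatives were filters, variance models (statmod 1.5.0 for the robust one), array weights, quantile normalization, the replicate number as a block, pools as samples, probe set choices, a floor, and each mouse left out. Leaving out tumour-bearing mice 3 and 4 was added after seeing the data. Promoter sequences are RefSeq's, for GRCm38.p6. Figures were drawn with matplotlib 3.10.9.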

Additional observations from a re-analysis of the deposited data

Results flagged for a closer look

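In the group of 5 tumour-bearing mice, 1 mouse lay far from the other 4 in 3 of the 16 list means, by the ratio of its gap to the whole range (critical value 0.710). Chance alone gives such a ratio in about 1 of 20 groups. For the paraventricular neuron markers the ratio was 0.897, with mouse 2 at 6.89 and the others at 7.18 to 7.21. For the striatum markers it was 0.768, with mouse 1 at 6.84 and the others at 5.87 to 6.09. For the genes listed as responding to thyroid hormone it was 0.749, with mouse 2 at 7.24 and the others at 7.02 to 7.08. The members of this list did not share that order. Mouse 2 was the highest of its group for Aldh1a1 (8.90), Cbr2 (5.40) and Hopx (5.70) and the lowest for Nrgn (8.28). For the remaining members it lay within the range of the other mice. None of the 8 measured genes had a mouse apart by this measure, the ratio being 0.647 for Trh.

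The pooled arrays, which entered no test, held pituitary transcripts in the tumour-bearing pool. Gh was at 9.82 in the tumour-bearing pool and 4.37 in the control pool. Prl, prolactin, was at 6.83 in the tumour-bearing pool and 2.98 in the control pool.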

How the results depend on the processing

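Of the 7 tested genes 0 were called by limma, 3 having an unadjusted p under 0.05. The count was 1, Trh, with only probe sets of 1 gene tested, and 0 to 1 with single mice left out, the 1 again being Trh without tumour-bearing mouse 2. Over all 12978 genes the count of calls was 10. It was 3 with no filter, 3 with no trend in the variance, 17 with array weights, 68 with only probe sets of 1 gene tested and 0 to 53 with single mice left out. Each single mouse moved this count by over 1.5 times: it was 4, 53, 4, 2 and 3 without tumour-bearing mice 1, 2, 3, 4 and 5, and 6, 2 and 0 without controls 1, 2 and 3. Without tumour-bearing mice 3 and 4 it was 0, with 1071 genes at an unadjusted p under 0.05, and without control 3 there were 1144 such genes. The cause was not tested. With the replicate number as a block the count was 0, with 570 genes at an unadjusted p under 0.05, and Trh differed by 0.44 (limma adjusted p = 0.631). Mice of the same number did not deviate together (correlations of -0.09, -0.03 and -0.04). So few pairs cannot settle whether the numbers stand for a shared batch or day, and the labels do not say. Trh, Trhde, Dio2, Slco1c1 and Hr kept their direction in all 20 alternatives. Thrb turned to 0.009 with the pools as samples, and ranged from -0.085 without control 3 to -0.002 without control 1, with -0.004, -0.060 and -0.010 without tumour-bearing mouse 1, tumour-bearing mouse 4 and control 2. Crym turned to -0.156 without control 3 and was 0.723 without control 1. Dio3 lay under the filter level, where a difference could not be resolved.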
